A study of Mus musculus with 33 samples.

Results

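The genes described here are 10 genes of the mesenchymal extracellular matrix: Tnc, Col1a1, Col1a2, Col3a1, Col5a1, Col5a2, Postn, Fn1, Lum and Dcn. They were taken by gene symbol from the 37991 gene identifiers in each count file, and all 10 were found. Tnc was selected on its log2 fold change between Neil2-mutant and control embryoid bodies (EBs), which was among the largest falls, and the others were chosen as matrix genes beside it, with results from these libraries known. Values of Neil2 EBs against control EBs are therefore given as a description, with no test.

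The 33 libraries came from E14TG2a mouse embryonic stem cells (mESCs) at 3 stages: undifferentiated mESCs, EBs harvested at day 8, and EBs + RA, which received 5 µM retinoic acid from day 4 and were harvested at day 8. The mutant lines carried CRISPR/Cas9 deletions in Neil1 or Neil2, DNA glycosylases of base excision repair, or in Apex1, an abasic site endonuclease. Control lines were wild-type cells that had received the empty plasmid and were cloned alongside. Control, Neil1 and Neil2 were each 3 independent clones, called replicates 1 to 3 here and followed through all stages. Apex1 was 1 clone with technical duplicates, so it has no biological replicate, and its SE assumes that the clone varies like the controls. The values behind the levels are raw read counts per gene, with totals from 21523742 to 48350904 per library, and levels are given as CPM, the counts scaled to the effective library size by TMM.

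The deletions removed a part of each gene around the active site and left the other exons in place, so counts summed over a gene do not check them. Apex1 was at 60 to 86.2 CPM in the Apex1 EB libraries and at 12.5 to 15.6 CPM in control EBs. In EBs, Neil1 was at 1.38 to 6.05 CPM in Neil1 clones and 5.80 to 9.19 CPM in controls, and Neil2 at 6.61 to 17.9 CPM in Neil2 clones and 6.45 to 10.7 CPM in controls. The mESC library of Neil1 replicate 3 had no counts in 345 of 511 X-linked genes that were present in the other mESC libraries. None of the matrix genes is on that chromosome, and its EB library had counts in all of the 511 genes.

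Fibrillar collagens are secreted as procollagens, trimmed outside the cell and assembled into fibrils that give connective tissue its strength. In the embryo, mesenchyme derived from mesoderm and neural crest deposits these collagens together with fibronectin and with matricellular proteins, which tune how cells adhere to the matrix. Small leucine-rich proteoglycans bind the surface of the fibrils. In EBs, mesenchymal and smooth muscle-like cells arise during mesoderm differentiation, and retinoic acid turns the cultures towards neural and other embryonic fates.

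Tnc (ENSMUSG00000028364) encodes tenascin-C, a matricellular glycoprotein of developing mesenchyme, and lies on the minus strand at chr4:63620819-63681760 of NCBIM37, the build to which all gene positions here refer. Col1a1 (ENSMUSG00000001506, chr11:94797538-94814356, plus strand) and Col1a2 (ENSMUSG00000029661, chr6:4454814-4491543, plus strand) encode the chains of type I collagen, the main collagen of bone and skin. Col3a1 (ENSMUSG00000026043, chr1:45368383-45406551, plus strand) encodes type III collagen of extensible tissues and vessels. Its neighbour Col5a2 (ENSMUSG00000026042, chr1:45431166-45560127, minus strand), 24.6 kb away, and Col5a1 (ENSMUSG00000026837, chr2:27741945-27895034, plus strand) encode chains of type V collagen, which nucleates type I fibrils. Postn (ENSMUSG00000027750, chr3:54165031-54194961, plus strand) encodes periostin, a matricellular protein that aids collagen cross-linking. Fn1 (ENSMUSG00000026193, chr1:71632094-71699774, minus strand) encodes fibronectin, on which other matrix proteins assemble. Dcn (ENSMUSG00000019929, chr10:96942245-96980777, plus strand) and Lum (ENSMUSG00000036446, chr10:97028135-97035337, plus strand), 47.4 kb apart, encode the proteoglycans decorin and lumican. Counts were taken over the annotated exons of each gene. Tnc, Col1a1, Col5a1 and Fn1 overlap genes on the other strand, and the library kit does not mark strand, but the overlapping genes had at most 50 counts in any library.

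Promoters are shown here for the members that had an entry in the promoter set used. They are the 250 bases before an annotated start, from RefSeq on GRCm38.p6, a build other than that of the gene positions above. Promoters were matched for 5 of the 10 members, and Col1a1, Col5a2, Fn1, Lum and Dcn had no entry. Of 2 starts listed for Tnc and for Postn, the one printed is at chr4:64046937-64047186 (minus strand) for Tnc and at chr3:54360857-54361106 (plus strand) for Postn. Those of Col1a2 (chr6:4505368-4505617), Col3a1 (chr1:45311288-45311537) and Col5a1 (chr2:27886175-27886424) are on the plus strand. Capitals mark the TATA box TATAAA, the GC box GGGCGG and the SMAD motif CAGACA, on either strand.
Tnc: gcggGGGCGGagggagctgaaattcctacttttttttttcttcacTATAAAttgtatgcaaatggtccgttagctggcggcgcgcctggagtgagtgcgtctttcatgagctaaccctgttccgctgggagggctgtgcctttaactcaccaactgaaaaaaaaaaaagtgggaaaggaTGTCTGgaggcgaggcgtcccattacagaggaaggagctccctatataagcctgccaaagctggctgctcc
Col1a2: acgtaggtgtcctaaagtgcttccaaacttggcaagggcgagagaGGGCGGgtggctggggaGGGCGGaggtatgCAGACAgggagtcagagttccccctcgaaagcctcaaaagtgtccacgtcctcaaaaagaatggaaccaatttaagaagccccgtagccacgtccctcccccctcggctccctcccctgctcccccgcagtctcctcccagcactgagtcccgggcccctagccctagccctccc
Col3a1: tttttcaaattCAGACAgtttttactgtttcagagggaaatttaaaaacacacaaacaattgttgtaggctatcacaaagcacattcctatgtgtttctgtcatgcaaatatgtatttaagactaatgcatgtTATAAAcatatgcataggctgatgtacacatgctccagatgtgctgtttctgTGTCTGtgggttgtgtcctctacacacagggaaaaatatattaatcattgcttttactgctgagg
Col5a1: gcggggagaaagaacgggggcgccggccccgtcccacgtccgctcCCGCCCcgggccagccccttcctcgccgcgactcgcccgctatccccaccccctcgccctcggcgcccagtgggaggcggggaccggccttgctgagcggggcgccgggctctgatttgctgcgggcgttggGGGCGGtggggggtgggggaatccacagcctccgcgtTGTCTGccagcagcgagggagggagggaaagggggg
Postn: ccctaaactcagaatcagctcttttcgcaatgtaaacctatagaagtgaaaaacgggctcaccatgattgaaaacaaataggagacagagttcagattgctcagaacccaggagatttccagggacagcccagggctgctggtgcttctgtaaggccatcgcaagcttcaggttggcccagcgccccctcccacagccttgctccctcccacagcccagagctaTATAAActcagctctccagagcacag
CAGACA, the letters bound by SMAD proteins downstream of TGF-beta, was in 4 of the 7 promoters listed for these 5 members and in 17.1% of 32851 promoters of the same length. In Tnc it lay 71 bases before the start printed, and the overlapping promoter of its other start held none. In Col5a1 it lay 36 bases before the start and in Col1a2 175 bases before it, while Col3a1 held a pair of matches, 239 and 65 bases before the start. TATAAA was in 4 of the 7 (both of Tnc, that of Col3a1 and the printed one of Postn) and in 12.4% of all. Its distance varied widely, at 205 bases before the printed start of Tnc, 117 before that of Col3a1 and 26 before that of Postn. GGGCGG was in 4 (both of Tnc and those of Col1a2 and Col5a1) and in 32.7% of all. Promoters of 1 gene that overlap share their matches. The start of Postn that is not printed held none of the motifs marked in capitals. Other motifs were searched on both strands too: CCAAT in 1 of the 7 (Col1a2) against 33.8% of all promoters, the E-box CANNTG in 3 (both of Tnc and that of Col3a1) against 66.2%, the AP-1 motif TGANTCA in 0 against 6.7%, and AGGTCA, the half-site of retinoic acid receptors, in 1 (the other start of Postn) against 14.0%. A match describes the letters only.

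Per kb of exon, which allows levels of different genes to be compared, Fn1 was the highest member in control EBs at a mean of 169.6 CPM per kb. Col1a1 followed at 24.0, Col5a1 at 11.3, Tnc at 2.04, Col1a2 at 1.56 and Col3a1 at 0.936 CPM per kb. In control EBs + RA, Fn1 was at 31.8, Col3a1 at 12.0, Col1a1 at 8.85, Col5a1 at 7.81, Tnc at 3.07, Col1a2 at 2.77, Dcn at 0.915, Postn at 0.595, Col5a2 at 0.322 and Lum at 0.0819 CPM per kb. Over the longest transcript instead of all exons, Col1a2 came to 6.30, Col3a1 to 18.1, Postn to 1.07 and Dcn to 1.01 CPM per kb. The matrix thus ranged from abundant fibronectin down to lumican, which had at most 14 counts in any library and is given mostly as counts.

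**Figure D1:**
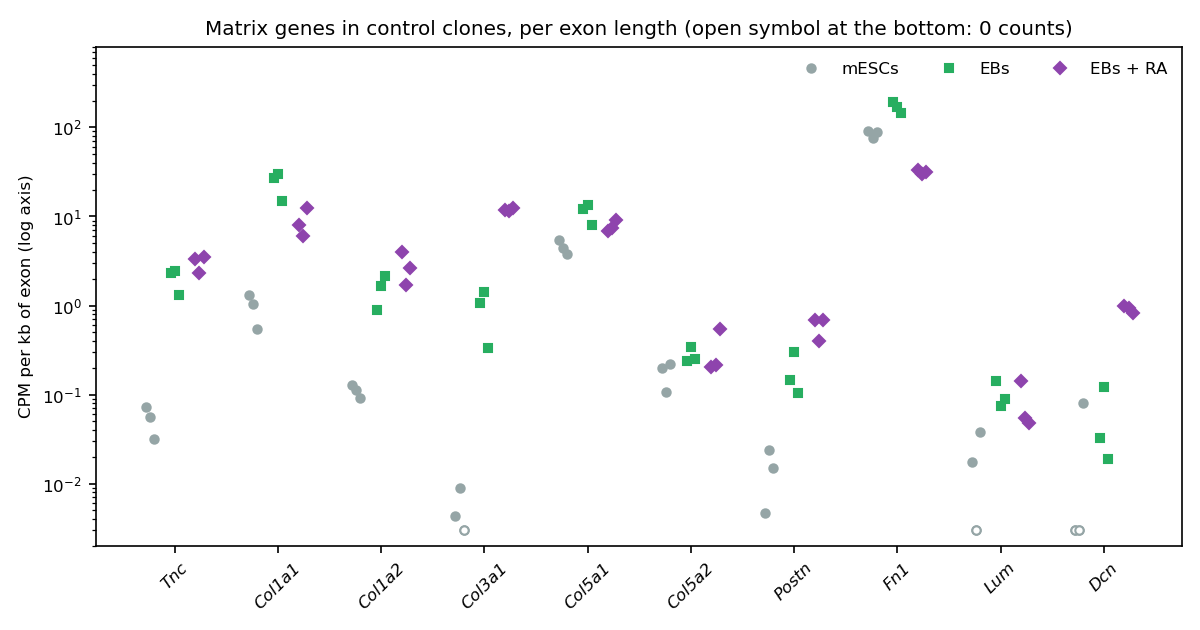
Level of each matrix gene in the 3 control clones at each stage, as CPM per kb of exon on a log axis, 1 point per clone and an open symbol for 0 counts. Fn1 stood highest at every stage, and Col3a1 went from 3 counts in all control mESCs to a mean of 12.0 CPM per kb in EBs + RA.

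The first comparison asked how the members change as control cells differentiate. Most matrix genes rose in EBs. Tnc was at 0.549, 0.416 and 0.236 CPM in control mESCs and at 17.4, 18.5 and 9.91 CPM in control EBs. It rose by a log2 fold change of 5.22 (SE 0.37, FDR 1.55e-05 by the edgeR quasi-likelihood test with Benjamini-Hochberg adjustment over all genes, as in all tests that follow). The groups were far apart. Col1a1 went from 8.71, 6.89 and 3.58 CPM to 177.4, 197.4 and 97.6 CPM, a log2 fold change of 4.6 (SE 0.36, FDR 2.52e-05). Col3a1 had 3 counts in the 3 control mESC libraries together and 805 in control EBs, a ratio of 211.6 in summed CPM with an exact 95% counting interval of 72.1 to 1028. Its log2 fold change was 7.53 (SE 0.81, FDR 0.000143), and 8.41 without mESC replicate 2, whose 2 counts were most of the total.

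Of the 10 members, 7 were differentially expressed (DE, FDR below 0.1 with a log2 fold change beyond 0.5 in size) and all 7 rose. Tnc, Col3a1 and Postn passed the filter on low counts here only through the EB libraries. A rise was thus the only call open to them. Over all 15799 genes tested, 18.5% were DE and higher. The others that rose were Col1a2 (log2 fold change 3.79, SE 0.35), Postn (3.58, SE 0.62), Col5a1 (1.30, SE 0.21) and Fn1 (0.97, SE 0.14). Fn1 and Col5a1 were already plainly present in mESCs, at 638.9 to 757.3 and at 31.8 to 45.7 CPM. Col5a2 did not pass (0.64, FDR 0.153), but did without mESC replicate 3 (0.85, FDR 0.0491), and Lum and Dcn had too few counts to be tested. These comparisons use the control EB libraries, which are also the reference of the Neil2 EB values that picked Tnc.

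Retinoic acid changed the make-up of the matrix in control clones. Col3a1 was at 8.93, 11.9 and 2.76 CPM in control EBs and at 100.1, 96.4 and 105.6 CPM in control EBs + RA, and rose by 3.67 on the log2 scale (SE 0.44, FDR 0.000411). Every treated clone was above every untreated one. Dcn had 3, 6 and 1 counts in control EBs and was at 1.92, 1.81 and 1.59 CPM with retinoic acid, a log2 fold change of 4.05 (SE 0.49, FDR 0.000206). Leaving out EB replicate 2 raised it to 4.94. Dcn passed the filter on low counts here only through the treated clones. Fn1 went the other way, from 1630, 1419 and 1197 CPM to 278.7, 250.9 and 266.3 CPM, a log2 fold change of -2.43 (SE 0.13, FDR 3.02e-06). Col1a1 also fell, by 1.45 on the log2 scale (SE 0.33, FDR 0.00782), from 97.6 to 197.4 CPM down to 39.9 to 81.5 CPM. Type III collagen and this chain of type I collagen thus moved in different directions.

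In all, 5 members were DE and higher with retinoic acid and 3 DE and lower, where 23.3% and 20.7% of 15919 genes were. Postn, the fibril cross-linking aid, rose by 1.70 (SE 0.41, FDR 0.0077). Tnc was at 25.1, 17.4 and 26.5 CPM in treated controls, which overlapped the untreated ones, and its log2 fold change was 0.58 (SE 0.25, FDR 0.09). Col1a2 was at 0.83 (SE 0.37, FDR 0.0964) and Col5a1 at -0.54 (SE 0.20, FDR 0.0514), while Col5a2 was not DE (0.21, FDR 0.689). The Tnc call was lost without EB replicate 1 (FDR 0.102) or 3 (0.34, FDR 0.206) and without treated replicate 1 (FDR 0.214) or 3 (FDR 0.207). The Col1a2 call was lost without EB replicate 1 (0.54, FDR 0.214) or 2 (FDR 0.168) and treated replicate 1 (0.47, FDR 0.318) or 3 (FDR 0.242). The Col5a1 call was lost without EB replicate 1 (FDR 0.133) or 2 (FDR 0.165) and treated replicate 1 (FDR 0.135) or 2 (FDR 0.11). Without a filter on low counts or with all genotypes in one model, the calls of Tnc (FDR 0.104 and 0.108) and Col1a2 (FDR 0.284 and 0.134) were lost as well, and the latter also with DESeq2's size factors (FDR 0.101).

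**Figure D2:**
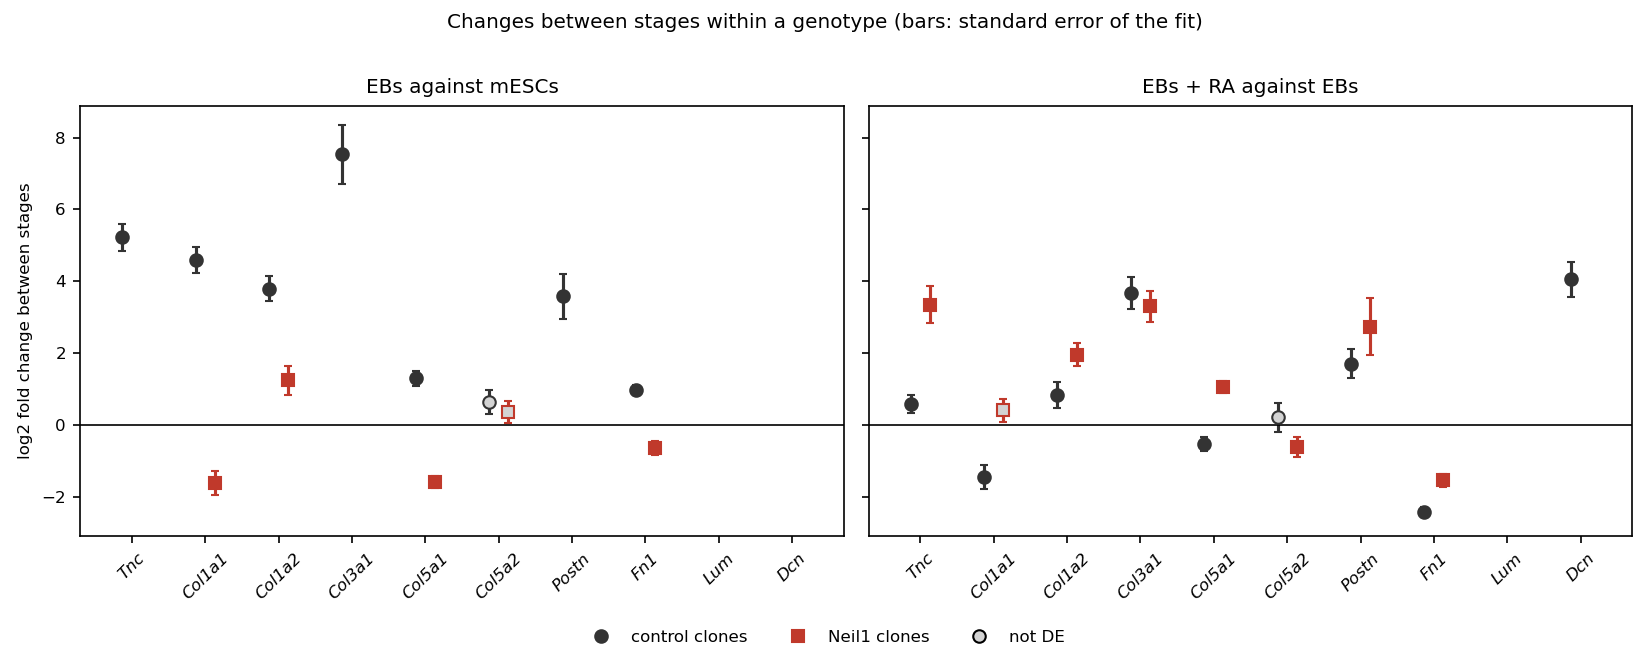
Log2 fold change of each matrix gene between stages in control clones (circles) and Neil1 clones (squares), with the SE of the fit, EBs against mESCs on the left and EBs + RA against EBs on the right. Grey symbols were not DE and genes with too few counts have none. Control clones rose in EBs for 7 genes, while Col1a1, Col5a1 and Fn1 fell in Neil1 clones.

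In mESCs, before most of the members are on, 5 of the 10 members had enough counts to be tested in Neil1 and in Neil2. Tnc was not among the 5, with 3 to 5 counts in the mutant libraries and 6 to 15 in controls. Its levels, 0.111 to 0.163 CPM in Neil1 and 0.133 to 0.186 CPM in Neil2, lay below all controls (0.236 to 0.549 CPM). Col1a2 was at 1.57, 1.36 and 1.10 CPM in control mESCs, at 0.245, 0.421 and 0.258 CPM in Neil1 and at 0.504, 0.297 and 0.167 CPM in Neil2 mESCs. It was the only DE member in each, with log2 fold changes of -2.13 (SE 0.38, FDR 0.076) and -2.10 (SE 0.42, FDR 0.0753). Col1a2 passed the filter on low counts there only through the controls, so a fall was the only call open to it. Over all genes, 0.784% were DE and lower in Neil1 mESCs and 0.429% in Neil2 mESCs. The 3 libraries of each mutant were below the controls, but at these counts the call was lost without 1 library in 5 of 6 cases for Neil1 (all except control replicate 3, with FDR from 0.131 to 0.338) and in 4 of 6 for Neil2 (control replicates 1 and 2 and Neil2 replicates 2 and 3, FDR from 0.203 to 0.374). Col1a1 had log2 fold changes of -1.03 (FDR 0.271) and -1.01 (FDR 0.217), and without control replicate 3 became DE in both, at -1.32 (FDR 0.0504) and -1.30 (FDR 0.00972). With DESeq2 Col1a1 was DE in Neil2 mESCs (FDR 0.0627).

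In Apex1 mESCs no member was DE, and 0.0% of the 16695 genes tested were by edgeR. At an unadjusted p under 0.05 there were 2175 genes, of which 1 was a member, Col3a1. It had 10 and 11 counts in the duplicates against 1, 2 and 0 in controls, a log2 fold change of 3.12 (SE 1.02, FDR 0.333). With DESeq2 0 members were DE. Without control replicate 3, Col3a1 (2.61, FDR 0.0353) and Col1a1 (-1.02, FDR 0.00336) were DE. Tnc was at 0.460 and 0.583 CPM in this clone and was not DE (0.34, SE 0.66, FDR 0.833).

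In EBs the members were far below control in Neil2 clones, by the contrast that picked Tnc. Tnc had 1, 3 and 1 counts in the Neil2 libraries (0.0319, 0.126 and 0.0450 CPM), against 17.4, 18.5 and 9.91 CPM in controls. The ratio of summed CPM was 243.0, and the fitted log2 fold change was -7.78. Tnc was selected for this fall, so its place as 3rd lowest of 15575 genes was set by the selection. Without Neil2 replicate 2 the log2 fold change was -8.52. Col3a1 had 5 counts in all, and its ratio was 124.2. Col1a1 was at 4.53, 1.46 and 2.25 CPM against 97.6 to 197.4 CPM in controls, with a fitted log2 fold change of -5.79. Those of the other members were -4.04 for Col1a2, -3.56 for Postn, -1.96 for Col5a1, -1.27 for Fn1 and -0.76 for Col5a2. All Neil2 libraries lay below all controls for 9 of the 10 members, and for 17.3% of all genes tested. The 9 include Lum, which was too low to be tested, and the members were picked beside this contrast. The exception was Dcn, with a mean of 0.286 CPM against 0.111 CPM in controls.

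Tnc was not selected on its Neil1 values, but the Neil1 EB comparison shares the 3 control libraries with that of Neil2. The members were also chosen with results from the Neil1 libraries known. In Neil1 EBs, 7 of the 10 members were DE, all lower, where 13.1% of 15479 genes were. Tnc had 2, 1 and 3 counts (0.100, 0.0407 and 0.112 CPM), and its log2 fold change was -7.44 (SE 0.41, FDR 1.43e-06). In summed CPM control EBs were 186.7 times higher (exact 95% counting interval 85.6 to 509.5). All Neil1 libraries lay below all controls for 8 of the 10 members, Col5a2 and Dcn being the exceptions, and for 22.8% of all genes tested. The 8 include Lum, which was too low to be tested. Col1a1 was at 1.10, 0.976 and 0.968 CPM, a log2 fold change of -7.28 (SE 0.35, FDR 1.3e-05), and these clones differed little among themselves. Tnc and Col1a1 were the 6th and 8th lowest of all genes by log2 fold change. Tnc, Col3a1 and Postn passed the filter on low counts here only through the control libraries. A fall was thus the only call open to them.

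For the partner chain Col1a2 the Neil1 EBs were at 0.6, 0.691 and 0.857 CPM against 10.8, 20.1 and 25.9 CPM in controls, a log2 fold change of -4.70 (SE 0.37, FDR 2.73e-05). Col3a1 was at 0.200, 0.163 and 0.335 CPM, a log2 fold change of -5.03 (SE 0.64, FDR 0.000694). Col5a1 kept a level of 18.1, 17.4 and 14.0 CPM where controls had 103.9, 115.5 and 67.6 CPM, a log2 fold change of -2.54 (SE 0.20, FDR 3.98e-05). Fibronectin, the most abundant member, had the smallest change of the 7, from a mean of 1415 ± 216.5 to 585.2 ± 99.8 CPM (SD, n = 3 clones each) with a log2 fold change of -1.27 (SE 0.14, FDR 0.000198). Tnc, Col1a1, Col1a2, Col3a1, Col5a1 and Fn1 were DE whichever library was left out.

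The remaining members were low. Postn was at 0.300, 0.122 and 0.745 CPM in Neil1 EBs and at 1.14, 2.37 and 0.810 CPM in controls, a log2 fold change of -1.82 (SE 0.59, FDR 0.0459). The call was lost without control replicate 2 (-1.30, FDR 0.142) or Neil1 replicate 1 (FDR 0.136) or 2 (-1.39, FDR 0.118). Without Neil1 replicate 3, the highest, it was -2.77. Col5a2 did not pass at 2.40, 1.83 and 1.71 CPM against 2.31, 3.27 and 2.43 CPM (-0.43, SE 0.26, FDR 0.243). Lum had 0 counts in all Neil1 EBs, which allows up to 3 counts in a library, and 14, 4 and 5 counts in controls. Dcn had 8, 4 and 20 counts against 3, 6 and 1. Both were too low to be tested.

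In the Apex1 clone 7 of the 10 members were DE and lower in EBs, where 9.1% of 16848 genes were. This comparison, too, shares its control libraries with the Neil2 EB contrast that picked Tnc. Postn and Lum passed the filter on low counts here only through the controls. Col1a2 was at 1.30 CPM in both duplicates, with a log2 fold change of -3.86 (SE 0.63, FDR 0.0181). Tnc was at 1.54 and 3.24 CPM, a log2 fold change of -2.67 (SE 0.41, FDR 0.00689), and Col1a1 at 16.2 and 21.0 CPM, -3.08 (SE 0.53, FDR 0.0381). Both were below all controls and above all Neil1 and Neil2 clones. Postn (-3.34, SE 0.79), Col5a1 (-2.16, SE 0.34), Col5a2 (-1.38, SE 0.39) and Fn1 (-1.0, SE 0.18) also fell. Col5a2 was not DE without control replicate 2 (FDR 0.136) or with all genotypes in one model (FDR 0.117), and Col1a1 not without a filter on low counts (FDR 0.216).

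Type III collagen and lumican were tested in Apex1 EBs but not DE, and Dcn was too low to be tested. Lum had a log2 fold change of -1.46 (SE 0.90, FDR 0.322). Col3a1 was at 2.11 and 5.41 CPM in its EBs against 8.93, 11.9 and 2.76 CPM in controls (-1.05, SE 0.84, FDR 0.487), and the ranges overlapped. It was DE without control replicate 3, the lowest control (-1.44, FDR 0.00141). In bulk RNA such as this, fewer cells of a type and less RNA per cell cannot be told apart, for this and all other members.

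**Figure D3:**
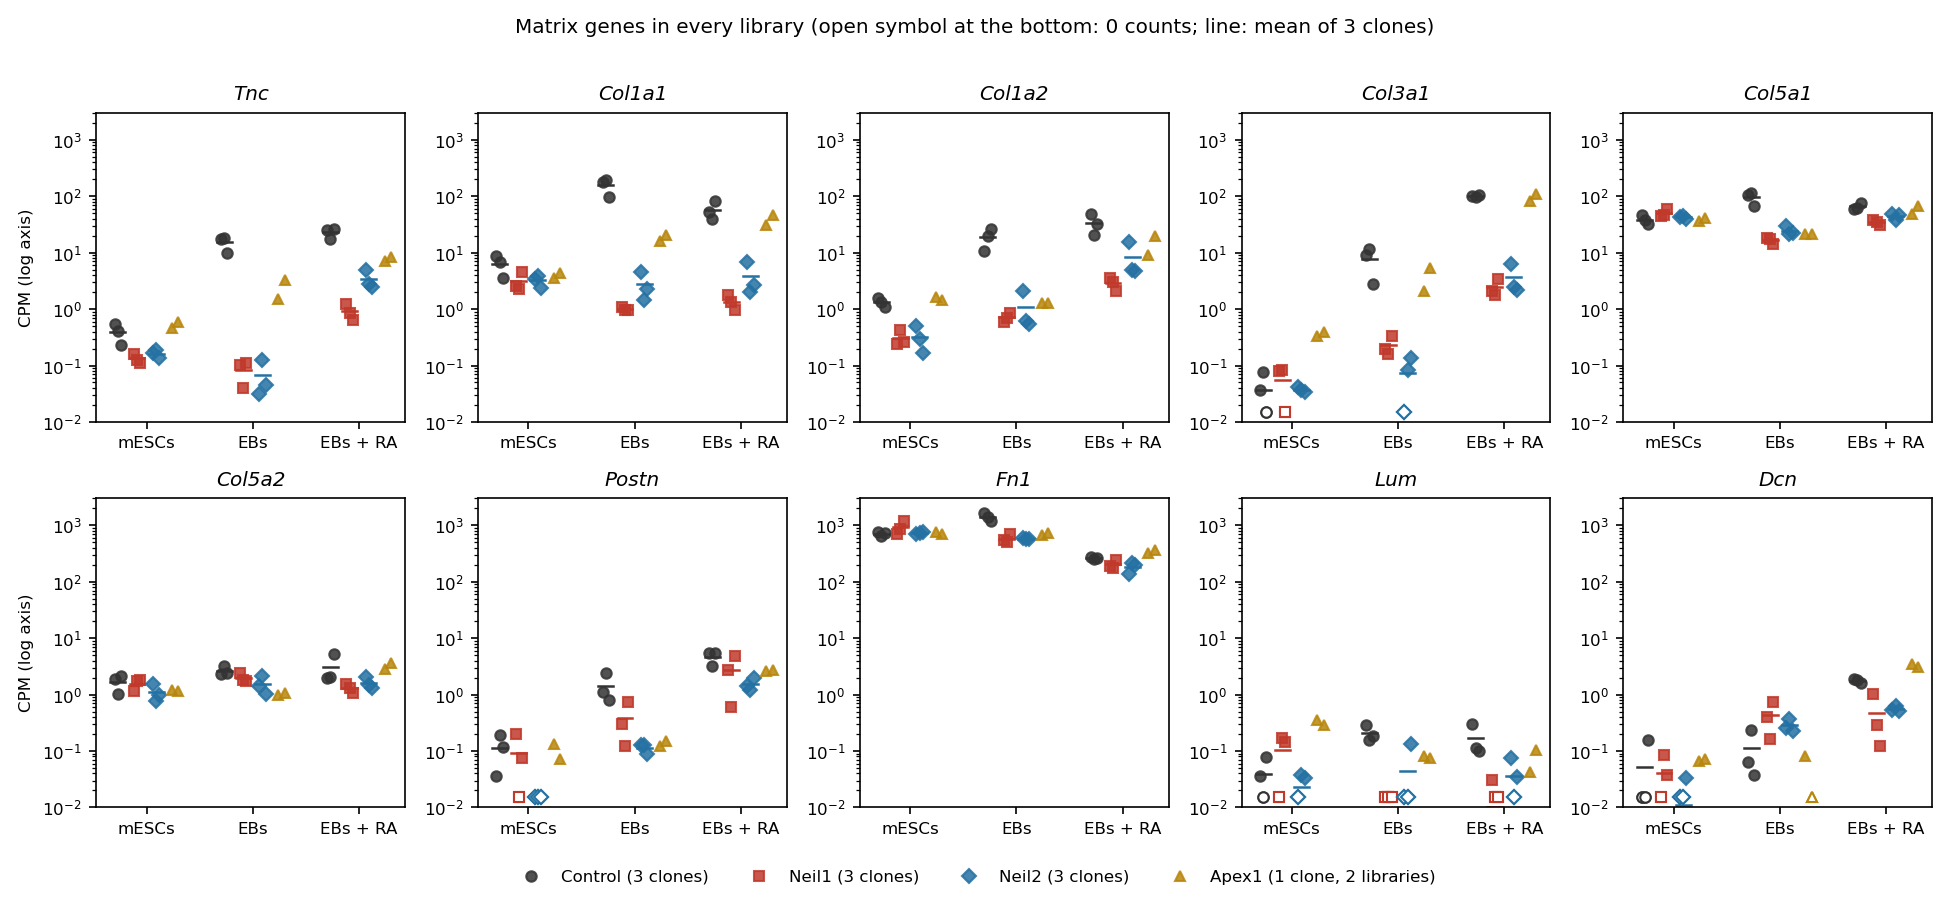
Level of each matrix gene in each of the 33 libraries, as CPM on a log axis, by stage and genotype, with the mean of 3 clones as a line and open symbols for 0 counts. In EBs the Tnc points of Neil1 and Neil2 lie near 0.1 CPM and those of controls between 9.91 and 18.5 CPM, with the Apex1 duplicates between them.

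With retinoic acid the members were again below control in Neil1 and Neil2. Tnc was not selected on these libraries, but the members were chosen with results from them known. In Neil1 EBs + RA, 7 of the 10 members were DE, all lower, where 19.9% of 16019 genes were. Tnc was at 1.24, 0.857 and 0.646 CPM against 25.1, 17.4 and 26.5 CPM in controls, a log2 fold change of -4.63 (SE 0.32, FDR 9.84e-05). Its control level was 24.7 times the Neil1 level in summed CPM (exact 95% counting interval 19.8 to 31.3). Col3a1, which rose with retinoic acid in controls, was at 2.11, 1.75 and 3.43 CPM against 96.4 to 105.6 CPM, a log2 fold change of -5.37 (SE 0.26, FDR 4.46e-05). Col1a1 was at 1.77, 1.36 and 0.969 CPM against 52.7, 39.9 and 81.5 CPM, -5.39 (SE 0.35, FDR 9.46e-05). All Neil1 libraries lay below all controls for 9 of the 10 members, Postn being the exception, and for 27.9% of all genes tested. The 9 include Lum, which was too low to be tested.

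Col1a2 fell by 3.54 on the log2 scale (SE 0.35, FDR 0.000385), to 3.53, 3.0 and 2.06 CPM. The fibril-nucleating Col5a1 was at 38.0, 35.4 and 31.3 CPM against 59.0, 63.1 and 76.9 CPM (-0.92, SE 0.15, FDR 0.0034). These 5 genes were DE whichever library was left out. Dcn passed the filter on low counts here only through the controls. It was at 1.02, 0.286 and 0.121 CPM, and its log2 fold change was -1.83 (SE 0.60, FDR 0.044). It was -3.06 without Neil1 replicate 1, the highest, and not DE without control replicate 1 (FDR 0.114) or 2 (FDR 0.101) or Neil1 replicate 2 (FDR 0.128). Col5a2 had -1.22 (SE 0.44, FDR 0.0572), with control replicate 3 far above the other controls at 5.23 against 1.95 and 2.07 CPM. It was -0.61 (FDR 0.155) without that library, and not DE without Neil1 replicate 2 (FDR 0.124) or 3 (FDR 0.104). The same held with the replicate number as a block (FDR 0.105), although that number stands for different clones in the 2 genotypes. Fn1 (-0.37, FDR 0.09) and Postn (-0.78, FDR 0.331) were not DE, and both were without Neil1 replicate 3 (-0.53, FDR 0.016, and -1.45, FDR 0.0732). The block made Postn DE (-1.08, FDR 0.0984).

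In Neil2 EBs + RA, 8 of the 10 members were DE, all lower, where 16.6% of 16055 genes were. Tnc was at 4.88, 2.77 and 2.50 CPM, a log2 fold change of -2.75 (SE 0.30, FDR 0.000727). Col3a1 was at 6.26, 2.49 and 2.19 CPM (-4.77, SE 0.38, FDR 0.000265) and Col1a1 at 6.71, 2.01 and 2.71 CPM (-3.91, SE 0.47, FDR 0.00101). All Neil2 libraries lay below all controls for 9 of the 10 members, Col5a2 being the exception, and for 26.4% of all genes tested. The 9 include Lum, which was too low to be tested. In Tnc, Col3a1 and Col1a1 Neil2 replicate 1 was the highest mutant clone. Without that replicate, the values were -5.41 for Col3a1, -4.61 for Col1a1 and -2.79 for Col1a2, which was at 15.3, 4.85 and 4.76 CPM and had -2.0 over all clones (SE 0.50, FDR 0.0176). Without a filter on low counts Col1a2 just missed the threshold (FDR 0.104).

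Of the proteoglycans and matricellular proteins, Dcn fell by 1.63 on the log2 scale (SE 0.29, FDR 0.00454) and Postn by 1.58 (SE 0.32, FDR 0.00758) in Neil2 EBs + RA. Both were DE whichever library was left out. Col5a1 (-0.57, SE 0.15, FDR 0.0197) and Fn1 (-0.50, SE 0.17, FDR 0.0546) were near the limit of fold change. Col5a1 crossed it without control replicate 3 (-0.46) or Neil2 replicate 2 (-0.47). Fn1 was no longer DE without control replicate 1 (-0.47, FDR 0.163) or 2 (FDR 0.1) or Neil2 replicate 1 (-0.32), nor with DESeq2's size factors (-0.49) or a minimum of 10 counts (-0.49). Col5a2 did not pass (-0.92, FDR 0.139), and Lum was too low to be tested in EBs + RA of any genotype.

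In the Apex1 clone with retinoic acid, Tnc was the only member DE, with 3.02% of 16792 genes DE and lower. Its duplicates were at 7.02 and 8.25 CPM against 17.4 to 26.5 CPM, a log2 fold change of -1.55 (SE 0.31, FDR 0.0518). Col3a1 was at 82.6 and 111.0 CPM, on both sides of the controls, with a log2 fold change of -0.01 (SE 0.16, FDR 0.985). Col1a1 was at 31.0 and 47.0 CPM (-0.52, SE 0.38, FDR 0.479), and Col1a2 at 9.24 and 20.0 CPM (-1.12, SE 0.44, FDR 0.208), the latter DE with DESeq2 (FDR 0.082) or with the duplicates as 2 replicates (FDR 0.0725). Dcn was above all controls at 3.47 and 3.04 CPM but not DE (0.89, FDR 0.21), and was DE with the duplicates as 2 replicates (FDR 0.0469) or without control replicate 3 (0.82, FDR 0.0601). Without that control Col5a2 was DE and higher too (0.73, FDR 0.0929, against 0.11). Fn1, at 321.4 and 360.2 CPM, was also above all controls (0.40, FDR 0.208).

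**Figure D4:**
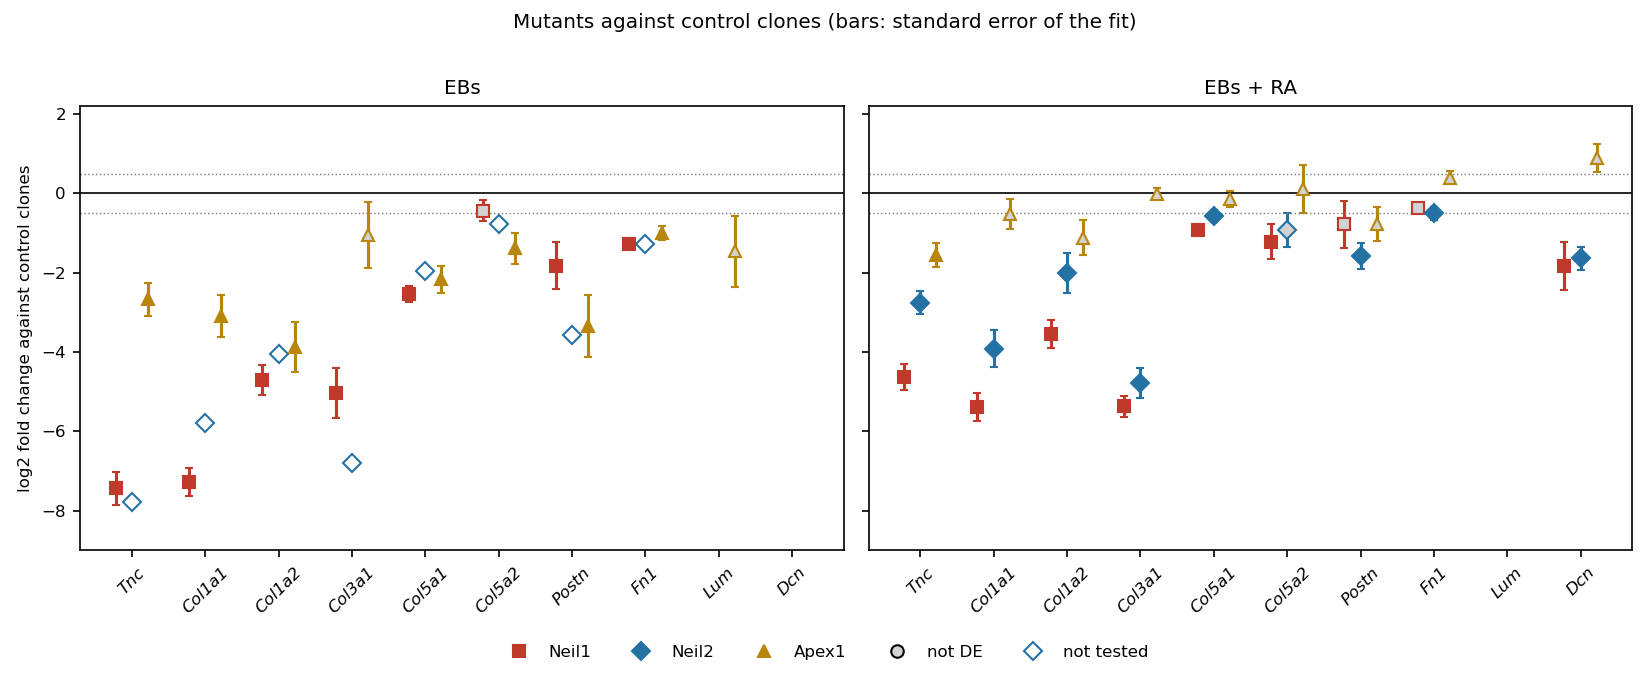
Log2 fold change of each matrix gene in Neil1 (squares), Neil2 (diamonds) and Apex1 (triangles) against control clones, with the SE of the fit, in EBs on the left and EBs + RA on the right. Grey symbols were not DE, open diamonds were not tested because they picked the genes, and genes with too few counts have none. Tnc went from -7.44 to -4.63 in Neil1, and Col3a1 of the Apex1 clone sat at -0.01 with retinoic acid.

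Whether the effect of Neil1 changed with retinoic acid was tested as an interaction in the 12 libraries of control and Neil1 EBs and EBs + RA, which again include the control EBs. It passed for 5 members, 4 upwards, which is a smaller deficit under retinoic acid, and 1 downwards, where 17.3% and 14.8% of 16706 genes passed in each direction. The difference was 2.83 for Tnc (SE 0.60, FDR 0.00564), 1.91 for Col1a1 (SE 0.50, FDR 0.0177), 1.64 for Col5a1 (SE 0.26, FDR 0.000988) and 0.92 for Fn1 (SE 0.22, FDR 0.0111). For Dcn, which was not below control in Neil1 EBs, it was -3.87 (SE 1.04, FDR 0.0186). It was -4.78 without control EB replicate 2, -3.19 without Neil1 EB replicate 3 and -5.10 without treated Neil1 replicate 1. Dcn had 1 to 6 counts in control EBs and 4 to 20 in Neil1 EBs, too few to be tested there, against 48 to 58 in treated controls. Its value thus rests on EB levels near the floor. So does the Neil1 side of the Tnc value, with 1 to 3 counts in a Neil1 EB library. For Col3a1 the difference was -0.33 (SE 0.90, FDR 0.82), smaller than its SE. Col1a2 did not pass (1.18, FDR 0.127), but did without control EB replicate 1 (1.45, FDR 0.0481) or treated control replicate 1 (1.52, FDR 0.0639).

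The stages were also compared within Neil1 clones. From mESCs to EBs, 3 members fell and 1 rose, where 14.7% and 13.1% of 15371 genes did. Col1a1 fell by 1.62 on the log2 scale (SE 0.34, FDR 0.00673), Col5a1 by 1.60 (SE 0.16, FDR 0.000156) and Fn1 by 0.65 (SE 0.19, FDR 0.0306). In controls these 3 genes rose, and the difference between the genotypes in this step was not tested. The Fn1 call was lost without EB replicate 1 (FDR 0.108) or 2 (FDR 0.122) or mESC replicate 3 (-0.44). Col1a2 rose by 1.24 (SE 0.41, FDR 0.0469), which was lost without EB replicate 2 (FDR 0.116) or 3 (FDR 0.134) or mESC replicate 1 (FDR 0.136) or 3 (FDR 0.119), and with DESeq2 (FDR 0.169) or all genotypes in one model (FDR 0.185). It passed the filter on low counts here only through the EB libraries. Col5a2 was not DE (0.36, FDR 0.428), and Tnc, Col3a1, Postn, Lum and Dcn had too few counts to be tested.

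With retinoic acid Tnc in Neil1 clones rose by 3.35 (SE 0.52, FDR 0.000983), from 6 counts in 3 EB libraries to 80 in 3 treated ones. Col3a1 rose by 3.30 (SE 0.44, FDR 0.000484), Postn by 2.73 (SE 0.80, FDR 0.0202), Col1a2 by 1.95 (SE 0.32, FDR 0.00134) and Col5a1 by 1.05 (SE 0.16, FDR 0.00082). Postn was at 3.65 without EB replicate 3 and at 2.05 without treated replicate 3. These 5 were DE and higher, where 28.2% of 15688 genes were, and 2 were DE and lower, where 25.2% were. Tnc, Col3a1 and Postn passed the filter on low counts here only through the treated clones. A rise was thus the only call open to them. Fn1 fell by 1.55 (SE 0.18, FDR 0.000227), as it did in controls, and Col5a2 had -0.62 (SE 0.29, FDR 0.0968). Col1a1, which fell in controls, was not DE (0.40, SE 0.32, FDR 0.319). The Col5a2 call was lost without EB replicate 1 (FDR 0.275) or 2 (FDR 0.155) or treated replicate 1 (FDR 0.104), 2 (FDR 0.184) or 3 (FDR 0.183), and with DESeq2 (FDR 0.151), no filter (FDR 0.172) or all genotypes in one model (FDR 0.206).

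Neil1 and Neil2 were also compared with each other. In EBs + RA, all 3 Neil1 clones lay below all 3 Neil2 clones in Tnc (0.646 to 1.24 against 2.50 to 4.88 CPM), Col1a1 and Col1a2, an order found for 9.75% of all genes. No member was DE by edgeR, and 0.0% of 15884 genes were, with 1608 at an unadjusted p under 0.05, 3 of them members (Tnc, Col1a1 and Col1a2). Tnc had a log2 fold change of -1.85 (SE 0.39, FDR 0.486), and with DESeq2 it was the only DE member, at -1.86 (FDR 0.0112). Col1a1 (-1.45, SE 0.49) and Col1a2 (-1.51, SE 0.49) also had an FDR of 0.486. In mESCs, 0 members were DE by edgeR and by DESeq2, and 0.0% of 15384 genes by edgeR, with 915 genes at an unadjusted p under 0.05 and none of them a member. In EBs, where Neil2 picked Tnc, the values are a description. All Neil1 clones lay below all Neil2 clones in Col1a1 (0.968 to 1.10 against 1.46 to 4.53 CPM) and Col5a1 (14.0 to 18.1 against 21.5 to 29.2 CPM), an order found for 5.77% of all genes. They lay above them in Col3a1 (0.163 to 0.335 against 0 to 0.135 CPM), as did 4.24% of all genes. The ranges of the other members overlapped, with means of 0.0842 and 0.0675 CPM for Tnc and 585.2 and 581.9 CPM for Fn1.

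Ordered by its mean over the 12 groups of stage and genotype, Tnc was highest in control EBs + RA (23.0 ± 4.90 CPM, SD, n = 3) and control EBs (15.3 ± 4.69 CPM), whose ranges overlapped. Then came Apex1 EBs + RA at 7.64 CPM, Neil2 EBs + RA at 3.38 ± 1.30 CPM and Apex1 EBs at 2.39 CPM, of which the last 2 overlapped. Neil1 EBs + RA followed at 0.914 ± 0.300 CPM. Apex1 and control mESCs at 0.521 and 0.400 CPM overlapped. Below them came Neil2 and Neil1 mESCs and then Neil1 and Neil2 EBs, from 0.162 down to 0.0675 CPM, each overlapping the next. Among 12479 genes whose log2 CPM averaged 1 or more, those whose log2 CPM was most like that of Tnc over the 33 libraries were Nrp1 (Pearson r 0.967), Acta2 (0.966), Bach2 (0.934), Rgs5 (0.932) and Tgfb2 (0.930), with a median r of 0.0248 over all genes. Nrp1 encodes a co-receptor of semaphorins and VEGF, Acta2 smooth muscle actin, Rgs5 a regulator of G protein signalling found in pericytes, and Tgfb2 a TGF-beta ligand. These r share stages, clones and libraries, and 3 of the 5 genes were also among the top 5 over group means, as were 3 by rank. Of the members, Col1a2 (0.919) and Col3a1 (0.915) were most like Tnc and Fn1 (-0.262) least.

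Other genes of the matrix were counted in fixed lists. Over all genes tested, 13.1% were DE and lower in Neil1 EBs and 19.9% in Neil1 EBs + RA. The shares DE and higher in these comparisons are not given here. Of 12 further collagens of several types, all 12 were tested in Neil1 EBs, with 7 lower and 1 higher. Their median log2 fold change was -1.06, beside 0.00 over all genes. Col6a1, of the beaded filaments of type VI collagen, had -3.50 (SE 0.33), and Col5a3 rose by 0.89 (SE 0.23). In Neil1 EBs + RA, 8 of these 12 were lower and 3 higher (median -1.64), led by Col2a1, the collagen of cartilage (-3.02, SE 0.37). Of 26 matrix glycoproteins, 23 were tested in Neil1 EBs, with 11 lower and 2 higher (median -0.87). With retinoic acid 24 were tested, with 11 lower and 7 higher (median -0.63). Among these Mfap2, a microfibril protein, had -4.81 (SE 0.22) and Tgfbi -4.26 (SE 0.19) with retinoic acid, while Spp1, osteopontin, was higher by 1.23 (SE 0.09) and 1.90 (SE 0.23) at the 2 stages.

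Of 23 genes that modify or process collagen, 22 were tested in Neil1 EBs, with 8 lower and 3 higher (median -0.36). The cross-linking oxidase Loxl4 was at -4.33 (SE 0.31). All 23 were tested in Neil1 EBs + RA, with 7 lower and 7 higher (median 0.42). Of 16 proteoglycans 9 were tested in Neil1 EBs, with 3 lower (median -0.30), biglycan (Bgn) at -3.16 (SE 0.29). With retinoic acid 10 were tested, with 5 lower and 2 higher (median -0.59), and versican (Vcan) was at -4.03 (SE 0.26). Of 18 matrix receptors, 17 were tested in Neil1 EBs, with 8 lower and 2 higher (median -0.48), the hyaluronan receptor Cd44 at -4.70 (SE 0.49). All 18 were tested with retinoic acid, with 4 lower and 3 higher (median 0.08), a share lower near the 19.9% of all genes. Of 17 matrix proteases and inhibitors, 13 were tested in Neil1 EBs, with 7 lower and 1 higher (median -0.61), Mmp9 at -3.85 (SE 0.22). With retinoic acid 14 were tested, with 6 lower and 3 higher (median -0.15). These lists, too, were drawn up with earlier results known.

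Markers of cell types moved beside the members, and their part in the members' levels was not tested. Summed over 20 mesenchyme markers, control EBs were at 108.8 to 152.9 CPM, Neil1 at 57.9 to 81.8, Neil2 at 52.5 to 81.3 and Apex1 at 54.0 to 68.4 CPM. In EBs + RA controls were at 362.6 to 437.6, Neil1 at 146.1 to 297.4, Neil2 at 121.1 to 207.3 and Apex1 at 286.3 to 291.3 CPM. No mesenchyme marker was at 0 in all libraries of a group. Over all genes, 13.1% were DE and lower in Neil1 EBs, 19.9% in Neil1 EBs + RA and 16.6% in Neil2 EBs + RA. In Neil1 EBs 15 of these 20 markers were tested, with 12 DE and lower and 1, Tcf15, higher. In EBs + RA 19 were tested, with 15 lower and 1 higher in Neil1 and 13 lower and 2 higher in Neil2. For the Apex1 clone the numbers were 6 and 1 in EBs and 2 and 1 in EBs + RA. The transcription factors Twist2 (-5.68, SE 0.51) and Foxf1a (-5.12, SE 0.45) led in Neil1 EBs and Prrx1 (-5.36, SE 0.45) and Osr1 (-4.14, SE 0.34) in Neil1 EBs + RA.

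Summed over 5 contractile smooth muscle genes, control EBs were at 185.3 to 217.2 CPM, Neil1 at 20.7 to 27.9, Neil2 at 20.9 to 38.6 and Apex1 at 30.4 to 36.9 CPM. All 5 were DE and lower in Neil1 EBs, Acta2 by a log2 fold change of -6.74 (SE 0.47) and Tagln by -3.90 (SE 0.18), and 4 in Neil1 EBs + RA. With retinoic acid the sums were 200.9 to 335.8 CPM in controls, 32.4 to 131.5 in Neil1, 110.7 to 144.5 in Neil2 and 128.8 to 139.8 in Apex1. None of the 5 was at 0 in all libraries of a group. Apex1 EBs + RA thus had control levels of Col3a1 beside smooth muscle and neural sums below all controls, the neural markers being at 80.9 to 85.4 CPM against 273.2 to 465.0 CPM in controls.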

How the data were processed

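RNA-seq was done on polyA RNA of 33 libraries of mouse E14TG2a cells. The authors sequenced for 51 cycles, aligned the reads to NCBIM37 with TopHat2 version 2.0.9 and Bowtie2 version 2.1.0 and counted them over genes by HTSeq version 0.5.4, per the labels, the submitters' processing notes and the study's methods, and deposited the raw counts with no normalization. Strand settings of the counting are not given in the sources used here. HTSeq's summary lines, 21.79% to 30.43% of each file's total, were left out of library sizes. The totals on genes had a median of 26720028 counts, and intervals on counts cover counting error only.

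Counts were compared with edgeR version 4.0.16 (robust quasi-likelihood test, TMM, filterByExpr, Benjamini-Hochberg adjustment over all genes tested) and limma version 3.58.1 in R version 4.3.3, on the groups compared only. Genes were DE where the FDR was below 0.1 and the log2 fold change beyond 0.5 in size, as in the study's methods, and interactions at an FDR below 0.1. The SE is the log2 fold change divided by the square root of F. The Apex1 duplicates were summed into 1 library. CPM values were TMM-scaled over all libraries, and log2 CPM used a prior count of 2. Likeness to Tnc was Pearson's r. Of the identifiers, 786 had no entry in the annotation (GENCODE vM1), and their rows were kept in the tests. Gene lengths are the union of annotated exons. The scripts for tests were tested on simulated data first. Tables and figures used Python version 3.11.15, numpy version 2.4.6, pandas version 2.3.3 and matplotlib version 3.10.9.

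The genes named are the 10 members, the targeted genes, up to 2 genes higher and 2 lower per list and comparison with the largest change among DE genes whose log2 CPM averaged 1 or more, and the 5 genes most like Tnc. The members and the 14 gene lists were chosen with earlier results of these data known. The alternatives were DESeq2 version 1.42.0, other size factors, no filter, at least 10 counts in every library, an FDR below 0.05, all genotypes in one model, the replicate block, the duplicates as 2 replicates and leaving out each library. The duplicates are 1 clone, so taking them as 2 replicates understates the spread between clones. Calls from that fit are given for comparison only.

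Stage comparisons follow the same clones, so the labels pair these samples. Deviations from the group means correlated at -0.46 to 0.46 (mean 0.12) in 27 pairs of the same clone, and at a mean of -0.05 in 54 pairs of different clones. Across genotypes the labels give only a number. In control and Neil1 EBs + RA the 3 pairs of the same number correlated at 0.22, 0.27 and 0.18 and the others at -0.15 to -0.03. The same number stands for different clones in the genotypes, so the main tests did not pair them. The replicate block was an alternative only. No other comparison across genotypes had all its pairs above 0.1. P-values of control, Neil1 and Neil2 measure the spread between clones.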

Additional observations from a re-analysis of the deposited data

Results flagged for a closer look

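For 5 members the change in Neil1 clones differed between EBs and EBs + RA in a test of the difference itself (edgeR, FDR below 0.1). The change with retinoic acid minus the change without was 2.83 on the log2 scale for Tnc, 1.91 for Col1a1, 1.64 for Col5a1, 0.92 for Fn1 and -3.87 for Dcn. Dcn had at most 6 counts in a control EB library and 20 in a Neil1 EB library, too few to be tested in EBs alone. Tnc had at most 3 counts in a Neil1 EB library, so its value also rests on levels near the floor. The comparison rests on the control EB libraries that also entered the contrast by which Tnc was picked.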

How the results depend on the processing

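Scaling by DESeq2's size factors in place of TMM, or fitting all genotypes in one model, left each count of DE members within 1.5 times its value. With at least 10 counts in every library, fewer genes were tested and the counts of DE members were 0 in Neil1 mESCs, 0 in Neil2 mESCs, 4 in Neil1 EBs, 4 in control EBs against mESCs, 4 in Neil1 EBs + RA against EBs and 3 for the interaction. At an FDR below 0.05 they were 0 in Neil1 mESCs, 0 in Neil2 mESCs, 0 in Apex1 EBs + RA and 5 in control EBs + RA against EBs. With DESeq2 they were 2 in Neil2 mESCs, 2 in Apex1 EBs + RA and 1 for Neil1 against Neil2 in EBs + RA, with the duplicates as 2 replicates 3 in Apex1 EBs + RA, and with no filter 7 in Neil1 EBs against mESCs. For these last the cause was not tested.

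With 1 library left out, the count of DE members was 0 to 3 in Neil1 mESCs, 0 to 3 in Neil2 mESCs, 0 to 2 in Apex1 mESCs (2 without control replicate 3), 1 to 3 in Apex1 EBs + RA, 5 to 7 in control EBs + RA against EBs and 2 to 4 in Neil1 EBs against mESCs. The Tnc value in Neil2 EBs was -8.52 to -7.40. Values near 0 changed sign: Col5a2 in Neil1 mESCs (-0.39 to 0.08), Fn1 in Neil2 mESCs (-0.04 to 0.07), Col5a1 (-0.12 to 0.15) and Fn1 (-0.04 to 0.09) in Apex1 mESCs, Col3a1 (-0.04 to 0.03) and Col5a2 (-0.13 to 0.73) in Apex1 EBs + RA, Col5a2 in control EBs + RA against EBs (-0.42 to 0.44) and Col3a1 in the interaction (-0.73 to 0.07). Between Neil1 and Neil2 so did Col1a1 in mESCs (-0.39 to 0.14) and, in EBs + RA, Col3a1 (-0.90 to 0.08), Fn1 (-0.01 to 0.27) and Dcn (-1.41 to 0.25). Col5a1 in Apex1 mESCs (0.00) was 0.01 with DESeq2, 0.03 with no filter and 0.01 with at least 10 counts, and Col3a1 in Apex1 EBs + RA (-0.01) was 0.01 and 0.02 with the last 2.

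With the replicate number as a block, 0 members were DE in Neil1 mESCs (Col1a2 at FDR 0.199) and 2 in Neil2 mESCs, where Col1a1 was added (-0.95, FDR 0.0897). In Neil1 EBs Postn was not DE with it (FDR 0.107). Beside these and the changes given in the report for Postn and Col5a2 in Neil1 EBs + RA, the block changed no other call, and none between stages, where it pairs the same clones. Across genotypes, control and Neil1 EBs + RA included, the same numbers correlated at -0.44 to 0.55 (mean -0.02). Only in that comparison were all 3 pairs above 0.1 and every sample most like that of its own number.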

Other observations

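Other cell type markers moved in directions of their own. Over all genes, 19.9% were DE and lower in Neil1 EBs + RA and 16.6% in Neil2 EBs + RA. The shares DE and higher are not given here. In Neil1 EBs, 7 of 8 pluripotency markers were DE and higher (median log2 fold change 0.63), and in EBs + RA 6 were higher and 1 lower in Neil1 (median 1.55), 7 higher in Neil2 (median 2.04) and 6 higher in the Apex1 clone (median 2.73). Their summed level in EBs + RA was 245.5 to 314.9 CPM in controls, 459.8 to 920.3 in Neil1, 524.3 to 1715 in Neil2 and 1642 to 2236 in Apex1. All 7 neural markers tested were DE and lower in Neil1 EBs + RA (median -3.67) and in Neil2 EBs + RA (median -3.33), led by Dcx, a microtubule protein of young neurons, at -6.21 (SE 0.34) in Neil1.

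Of 13 primitive endoderm markers, 12 were DE and lower in Apex1 EBs (median -2.11), while in Neil1 2 were higher in EBs (median 0.34) and 10 in EBs + RA (median 1.64). Of 11 neural crest markers 7 were lower and 1 higher in Neil1 EBs + RA (median -1.02), with Tcfap2b at -8.18 (SE 0.66) and Pax3 at -3.84 (SE 0.61). Of 9 endothelial markers 4 were higher and 3 lower there (median 1.27), the VEGF receptor Kdr at -2.54 (SE 0.29), and of 9 cardiac muscle markers 4 were higher and 2 lower (median 0.91), with cardiac actin (Actc1) at -4.01 (SE 0.44).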
